A study of Chlorocebus aethiops with 10 samples.

Results

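Chemokines are small secreted proteins that guide leukocytes into tissue, and chemokine receptors are the G protein-coupled receptors through which leukocytes sense them. In liver, hepatocytes, Kupffer cells, endothelial cells and stellate cells make chemokines, and the receptors sit mainly on the T cells, NK cells, monocytes, dendritic cells and neutrophils that pass through or reside in the organ. Ligands and receptors are named by the spacing of conserved cysteines in the ligand, as CC, CXC, C and CX3C classes. The 56 genes described here are those whose symbol begins with CCL, CXCL, CCR or CXCR and a number, or is CX3CL1, CX3CR1, XCL1, XCL2 or XCR1. They were measured by 60 array features, of 16583 genes with a symbol and 45033 features in all, and comprise 41 ligands and 15 receptors. CCR2 and CXCL16 were not analysed here.

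Liver biopsies were taken from adult female African green monkeys (Chlorocebus aethiops). The antimiR-33a/b and the vehicle animals alike were moderately obese and had eaten a diet high in fat for 12 weeks. The 5 antimiR-33a/b animals had been injected under the skin with an antisense oligonucleotide against miR-33a and miR-33b, microRNAs that repress genes of cholesterol and fatty acid handling, at 20 mg/kg on day 0 and 5 mg/kg weekly after that. The 5 vehicle animals received 0.9% saline, and all biopsies were taken on day 57, with 1 array per animal. The protocol's animals on a single antimiR, 33a or 33b, were not used here.

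Every value below is on a centred scale taken as log2. Taken across the 10 animals, 92.4% of features had medians under 0.1 in size, and the largest was 0.668; which arrays the values were centred on is unknown. A value can be read against the other animals for the same gene and carries no information on how abundant the transcript is. Levels therefore cannot be compared between genes, the liver origin of the samples could not be checked from marker levels, and signal over background is unknown. Array medians lay between -0.054 and 0.061. The arrays measure bulk tissue, in which fewer cells of a type and less RNA per cell cannot be told apart.

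Treatment with antimiR-33a/b was set against vehicle to ask which chemokine and receptor transcripts differed in liver after 8 weeks. Of the 56 genes, 12 passed an adjusted p of 0.05 in limma, 3 higher and 9 lower in treated livers. CCL16, a chemokine made by hepatocytes, rose 1.41-fold, CXCL5, a neutrophil attractant, rose 1.20-fold, and CXCR6, a receptor of liver-resident lymphocytes, rose 1.17-fold. CCR10, a receptor of skin- and mucosa-homing lymphocytes, fell to 0.701-fold, CCL1, a ligand of CCR8, to 0.728-fold, and the interferon-induced CXCL9 to 0.754-fold. CCL14, CCL5, CCL3L3, CXCL6, CXCR1 and CXCR3 were the other genes that fell, to between 0.773-fold and 0.868-fold.

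The 12 genes are 21.4% of the 56, against 20.5% of all 16583 genes, so the chemokine genes were called at about the share of the whole array. The directions were divided otherwise than in the whole array, where 13.7% of genes were called higher and 6.8% lower (66.8% of calls higher, and 54.3% after quantile normalization). The median difference, antimiR-33a/b minus vehicle, was -0.050 over the 56 genes and 0.039 over all genes, and 36 of the 56 differences were negative. The counts called in each direction depended on what the arrays were scaled to. A shift of all arrays to the same median of gene families taken as silent in liver adds 0.080 to the difference of every gene. The median was then 0.031 over the 56 genes and 0.12 over all genes. The gap between them stayed at -0.089, as it must when every gene moves alike. After quantile normalization the gap was also -0.089, and with the family covariate described below it was 0.035. After the silent-family shift 10 of the 56 were called higher and 4 lower, against 28.5% and 4.84% of all genes (33.3% in all). In 6 of the 56 genes (10.7%) the treated and vehicle values did not overlap, against 13.3% of all genes. CXCL5 and CCL24 lay above vehicle in this way, as did 8.79% of all genes, and CCL1, CCR10, CCL3L3 and CCL4 lay below it, as did 4.52% of all genes. Without any 1 of 8 animals, between 5 and 9 of the 56 genes passed (8.93% to 16.1%), against 11.6% to 18.3% of all genes. Without antimiR-33a/b animal 2, 13 passed (23.2%, against 20.3% of all genes). Without vehicle animal 4, 16 passed (28.6%, against 24.8% of all genes). Whichever of the 10 animals was left out, CCL1, CCR10, CCL16 and CXCL5 passed.

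**Figure D1:**
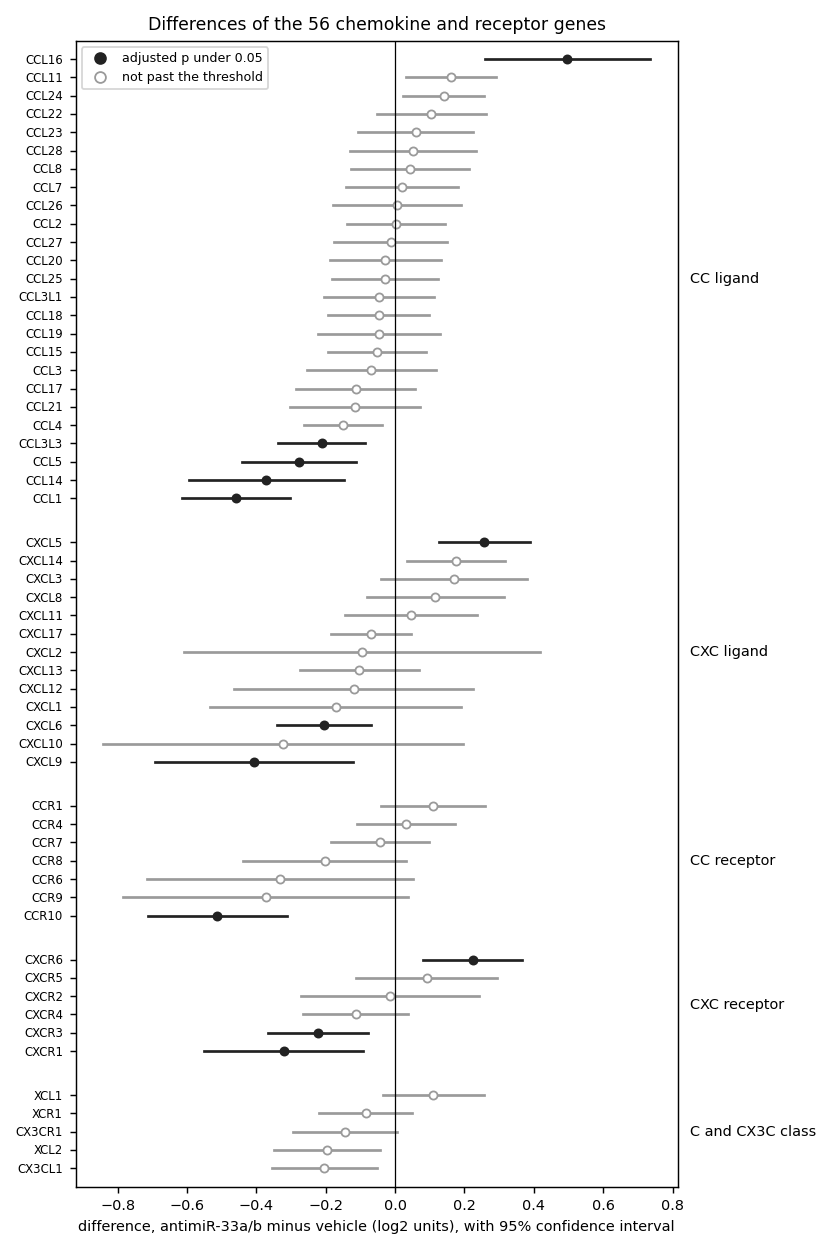
Difference between antimiR-33a/b and vehicle animals (log2 units, n = 5 each) for each of the 56 chemokine and receptor genes, with its 95% confidence interval from limma, grouped by class and ordered by difference. Filled points mark the 12 genes past an adjusted p of 0.05, of which CCL16, CXCL5 and CXCR6 lie above 0 and 9 lie below it.

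Among the 25 CC ligands, 1 rose and 4 fell (20% called, against 20.5% of all genes). CCL16 had centred values of 0.18, 0.15, 0.24, -0.14 and 0.078 in treated animals, against -0.68, -0.36, -0.26, -0.077 and -0.61 in vehicle animals. All treated animals but animal 4 lay above the whole vehicle range, and vehicle animal 4 was the nearest of its group to them. The difference was 0.50 (SE 0.11, 95% confidence interval 0.26 to 0.74, limma adjusted p = 0.0101). Each gene was also given a two-sided exact test that permuted the animals in all 252 ways and cannot go below p = 0.00794 before adjustment. It gave 0.0159 for CCL16, 0.00794 for the 6 genes without overlap, and between 0.0159 and 0.0317 for the other called genes.

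CCL14, another plasma chemokine of the same CC gene cluster as CCL16 in humans, moved in the opposite direction. Its values were -0.24, 0.19, -0.28, -0.13 and -0.30 in treated animals, against 0.33, 0.12, 0.27, -0.031 and 0.40 in vehicle animals. Treated animal 2 lay within the vehicle range and vehicle animals 2 and 4 within the treated range, and the difference was -0.37 (SE 0.10, limma adjusted p = 0.0247). CCL14 missed the threshold without any 1 of 6 animals. CCL15 and CCL23, the other measured members of that group of ligands of the receptor CCR1, differed by -0.052 and 0.060 (adjusted p = 0.601 and 0.609).

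CCL1, which is made by activated T cells and attracts cells bearing CCR8, gave the smallest adjusted p of the 56 genes. Its values were -0.18, -0.17, -0.17, -0.26 and -0.33 in treated animals, against 0.31, 0.12, 0.34, 0.044 and 0.35 in vehicle animals. Every treated value lay below every vehicle value, and the difference was -0.46 (SE 0.072, 95% confidence interval -0.61 to -0.30, limma adjusted p = 0.00222). CCR8, its receptor, differed by -0.20 (SE 0.11, adjusted p = 0.201), with treated values between -0.35 and 0.18 and vehicle values between -0.15 and 0.35.

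CCL5, which draws T cells and monocytes and is released by cytotoxic lymphocytes, had values of -0.079, -0.15, -0.022, -0.25 and -0.34 in treated animals, against 0.084, 0.052, 0.17, -0.032 and 0.28 in vehicle animals. The groups met only at vehicle animal 4, which lay just below treated animal 3, and the difference was -0.28 (SE 0.076, limma adjusted p = 0.0234). It missed the threshold without any 1 of 3 animals, with adjusted p up to 0.0540.

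The genes of the inflammatory macrophage chemokines CCL3 and CCL4 gave negative differences in 4 of 4 cases, 1 of them past the threshold. CCL3L3, a near-identical copy of CCL3, had values of -0.11, -0.063, -0.21, -0.058 and -0.024 in treated animals, against 0.074, 0.15, 0.11, 0.046 and 0.22 in vehicle animals, with no overlap and a difference of -0.21 (SE 0.058, limma adjusted p = 0.0235). CCL4 also separated the groups, between -0.13 and -0.036 in treated and between 0.034 and 0.16 in vehicle animals, and missed the threshold with a difference of -0.15 (adjusted p = 0.0574). CCL3 and the copy CCL3L1 overlapped between groups and differed by -0.068 and -0.047 (adjusted p = 0.603 and 0.687). The copies share most of their sequence, so how the features divide signal among CCL3, CCL3L1 and CCL3L3 is uncertain.

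CCL2, the main monocyte attractant and the ligand of CCR2, did not pass, with -0.015 ± 0.089 in treated and -0.017 ± 0.097 in vehicle animals (SD, n = 5 each). The 95% confidence interval of its difference ran from -0.14 to 0.14. CCL20, the ligand of CCR6, differed by -0.029, and the lymphoid homing ligands CCL19 and CCL21 by -0.047 and -0.12 (adjusted p = 0.814, 0.717 and 0.360).

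The eotaxins, which attract eosinophils through CCR3, had positive differences in 3 of 3 cases and 0 past the threshold in limma. For 2 of them the unadjusted p was under 0.05, as for 5904 of all 16583 genes. CCL24 lay between 3e-06 and 0.13 in treated animals and between -0.16 and -0.0026 in vehicle animals, without overlap, and differed by 0.14 (SE 0.054, limma adjusted p = 0.0808). CCL11 differed by 0.16 (adjusted p = 0.0753) and CCL26 by 0.0049 (adjusted p = 0.974). With arrays shifted to the same median of silent families, which adds the same amount to every gene, CCL24 and CCL11 passed, with differences of 0.22 and 0.24 (adjusted p = 0.0105 and 0.00946).

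Among the 13 CXC ligands, 1 rose and 2 fell (23.1% called, against 20.5% of all genes). The ligands that carry the glutamate-leucine-arginine motif attract neutrophils through CXCR1 and CXCR2, and 6 of them were measured. CXCL5 rose, with values of 0.081, -0.0068, -0.089, 0.12 and -0.037 in treated animals, against -0.19, -0.31, -0.25, -0.14 and -0.32 in vehicle animals. The groups did not overlap, and the difference was 0.26 (SE 0.061, 95% confidence interval 0.13 to 0.39, limma adjusted p = 0.0128).

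CXCL6, the closest relative of CXCL5 in humans, fell, with values of -0.10, 0.0024, -0.0024, -0.20 and -0.11 in treated animals, against 0.16, 0.11, 0.13, -0.0077 and 0.23 in vehicle animals. Vehicle animal 4 lay below 2 treated animals, and the difference was -0.20 (SE 0.063, limma adjusted p = 0.0361). It missed the threshold without any 1 of 7 animals.

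CXCL1 and CXCL2 varied widely among animals of the same group. CXCL2 had values of 0.0043, 0.18, -0.31, -0.56 and 0.83 in treated animals, against -0.45, -0.15, 0.52, 0.24 and 0.48 in vehicle animals. CXCL1 had -0.042, 0.22, -0.21, -0.38 and 0.59 in treated animals, against -0.13, 0.0054, 0.45, 0.24 and 0.48 in vehicle animals. For both genes treated animal 5 was the highest and treated animal 4 the lowest of the treated animals, and vehicle animal 1 was the lowest and vehicle animals 3 and 5 the highest of the vehicle animals. The differences were -0.097 for CXCL2 (95% confidence interval -0.61 to 0.42, adjusted p = 0.806) and -0.17 for CXCL1 (-0.53 to 0.19, adjusted p = 0.493). CXCL3 and CXCL8, a further pair of neutrophil attractants, differed by 0.17 and 0.12 (adjusted p = 0.231 and 0.386).

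The ligands of CXCR3 are induced by interferon and draw activated T and NK cells. CXCL9 fell, with values of -0.47, -0.047, -0.21, -0.023 and -0.21 in treated animals, against 0.22, 0.023, 0.12, -0.033 and 0.74 in vehicle animals. Vehicle animal 5 was far above the rest of its group and vehicle animal 4 lay within the treated range. The difference was -0.41 (SE 0.13, limma adjusted p = 0.0449), and it missed the threshold without any 1 of 8 animals, with a difference of -0.28 where it was smallest.

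CXCL10 spread more widely than any other of the 56 genes, with a pooled within-group SD of 0.48. It had values of -0.50, 0.17, 0.64, -0.33 and -0.039 in treated animals, against 0.23, 0.17, 0.88, 0.71 and -0.43 in vehicle animals. Its animals did not follow the order of CXCL9, since vehicle animal 5 was the highest animal for CXCL9 and the lowest vehicle animal for CXCL10. The difference was -0.32 (95% confidence interval -0.84 to 0.20, adjusted p = 0.356), and CXCL11 differed by 0.046 (adjusted p = 0.745).

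CXCL12, the homeostatic ligand of CXCR4, was made up of 3 features and differed by -0.12 (SE 0.16, adjusted p = 0.626). The features differed by -0.19, -0.11 and -0.061, and none of these passed. CXCL13 and CXCL17 differed by -0.10 and -0.069 (adjusted p = 0.375 each), and CXCL14 by 0.18 (adjusted p = 0.0725). CXCL17 was among the least variable of the 56 genes, with a pooled SD of 0.053.

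**Figure D2:**
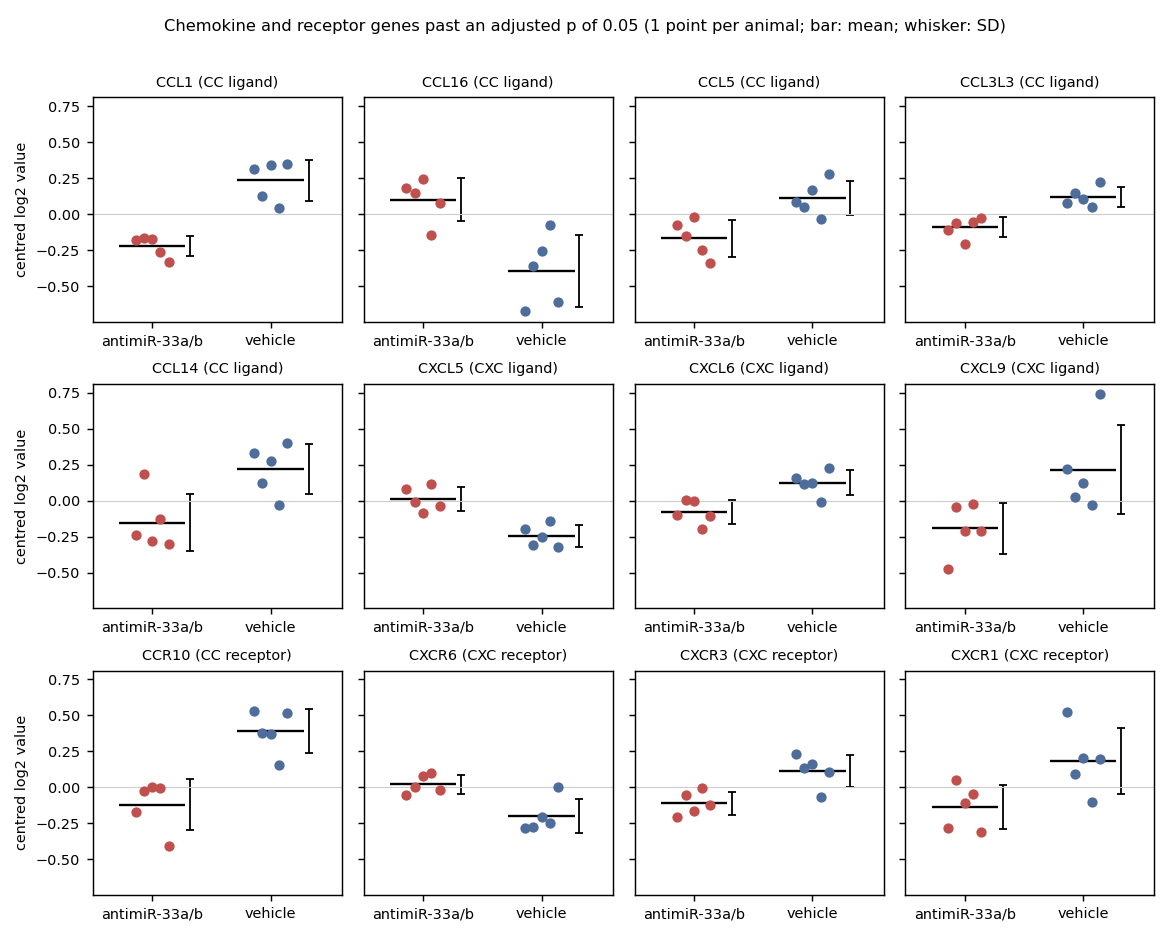
Centred log2 value of each of the 12 genes past an adjusted p of 0.05, with 1 point per animal, antimiR-33a/b on the left and vehicle on the right (n = 5 each); the bar is the mean and the whisker the SD. CCL1, CCL3L3, CXCL5 and CCR10 separate the groups in full, and the other 8 genes overlap.

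Among the receptors, 1 of 15 rose and 3 fell (26.7% called, against 20.5% of all genes). Of 7 CC receptors only CCR10 passed (14.3%). It had values of -0.17, -0.029, 0.0032, -0.0032 and -0.41 in treated animals, against 0.53, 0.38, 0.37, 0.15 and 0.52 in vehicle animals, with no overlap. The difference was -0.51 (SE 0.093, 95% confidence interval -0.71 to -0.31, limma adjusted p = 0.00427), the largest in size of the 56 genes. The ligands of CCR10, CCL27 and CCL28, differed by -0.013 and 0.053 (adjusted p = 0.919 and 0.691).

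CCR6, carried by Th17 cells and B cells, had values of -0.71, -0.21, -0.016, -0.25 and -0.25 in treated animals, against 0.45, 0.016, 0.14, -0.65 and 0.26 in vehicle animals. Vehicle animal 4 and treated animal 1 were the lowest of the 10 animals, and the difference was -0.33 (SE 0.18, adjusted p = 0.198). Without vehicle animal 4 the difference was -0.51 and passed (adjusted p = 0.0141). CCR9, the gut-homing receptor, differed by -0.37 (SE 0.19, adjusted p = 0.179), but vehicle animal 5 stood at 1.24 while its other 4 group members lay between -0.011 and 0.15. Without that animal the difference was -0.14. CCR7, which guides dendritic cells and naive T cells to lymph nodes, differed by -0.045, CCR1 by 0.11 and CCR4 by 0.031 (adjusted p = 0.659, 0.280 and 0.769).

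Of 6 CXC receptors, CXCR6 rose and CXCR3 and CXCR1 fell (50% of this small class, against 20.5% of all genes). CXCR6, the receptor for CXCL16 on liver-resident T and NKT cells, had values of -0.052, -0.0012, 0.078, 0.10 and -0.018 in treated animals, against -0.29, -0.28, -0.20, -0.25 and 0.0012 in vehicle animals. Every vehicle animal except animal 5 lay below all treated animals. The difference was 0.22 (SE 0.066, limma adjusted p = 0.0320), and without vehicle animal 5 it was 0.27.

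CXCR3, on activated T and NK cells, went the other way. Its values were -0.20, -0.056, -0.16, -0.0060 and -0.13 in treated animals, against 0.23, 0.14, 0.16, -0.067 and 0.10 in vehicle animals. Vehicle animal 4 alone overlapped the treated range, and the difference was -0.22 (SE 0.067, limma adjusted p = 0.0329). CXCR1, a neutrophil receptor for CXCL8 and CXCL6, differed by -0.32 (SE 0.11, limma adjusted p = 0.0471), with treated values between -0.31 and 0.047 and vehicle values between -0.10 and 0.52. CXCR6, CXCR3 and CXCR1 missed the threshold without any 1 of 5, 6 and 8 animals.

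The other CXC receptors overlapped between groups. CXCR2, the second neutrophil receptor, averaged 0.0024 ± 0.15 in treated and 0.017 ± 0.27 in vehicle animals (SD, n = 5 each). CXCR4 differed by -0.11 and the B cell receptor CXCR5 by 0.091 (adjusted p = 0.265 and 0.515).

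In the C and CX3C classes, 0 of 5 genes passed in limma, against 20.5% of all genes. An unadjusted p under 0.05 was found for 2 of the 5, and for 5904 of all 16583 genes. CX3CL1, a membrane-bound chemokine of endothelium and epithelium, had values of -0.16, 0.076, -0.22, -0.011 and -0.078 in treated animals, against 0.15, 0.13, 0.17, -0.035 and 0.21 in vehicle animals. Vehicle animal 4 lay inside the treated range, the difference was -0.20 (SE 0.070, adjusted p = 0.0550), and without that animal or without treated animal 2 CX3CL1 passed (adjusted p = 0.0213 and 0.0306). Its receptor CX3CR1, on monocytes and NK cells, differed by -0.15 (adjusted p = 0.151). XCL2 and XCL1, near-identical ligands of XCR1 that the features may not tell apart, differed by -0.20 and 0.11 (adjusted p = 0.0672 and 0.260). XCR1, a receptor of cross-presenting dendritic cells, differed by -0.085 (adjusted p = 0.348), and its 2 features by -0.17 and 0.0031.

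**Figure D3:**
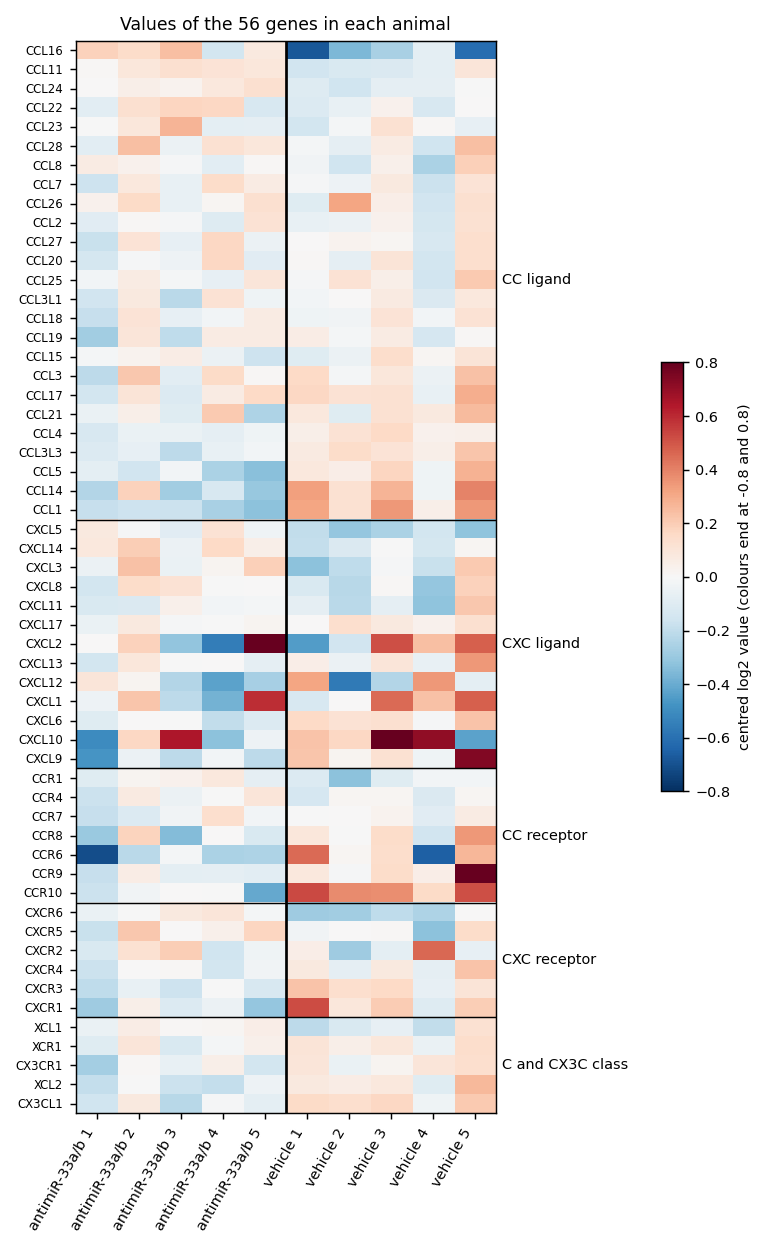
Centred log2 value of each of the 56 genes (rows, grouped by class and ordered by difference) in each of the 5 antimiR-33a/b and 5 vehicle animals (columns). Vehicle animal 5 is the highest animal for 25 genes, treated animal 1 is the lowest for 18 and vehicle animal 4 for 11.

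The same few animals were often the highest or the lowest across the 56 genes. Vehicle animal 5 was the highest of the 10 animals in 25 of the 56 genes. Treated animal 1 was the lowest in 18 and vehicle animal 4 the lowest in 11. The median over all features was also highest in vehicle animal 5 (0.061) and lowest in vehicle animal 4 (-0.054), with treated animal 1 at -0.034. Highest and lowest animals were not counted over all genes, so these counts cannot be called particular to the 56. The median over the 56 genes was -0.13, 0.069, -0.048, -0.0055 and -0.030 in treated animals 1 to 5, against 0.0032, -0.013, 0.078, -0.072 and 0.14 in vehicle animals 1 to 5. Vehicle animal 4 was the vehicle animal nearest to the treated values in 11 of the 12 genes past the threshold.

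Gene families taken as silent in liver gave nearly the same profile, though their silence could not be checked on a centred scale. They were 513 genes of olfactory, taste and vomeronasal receptors, keratin-associated and cornified envelope proteins and beta-defensins. Their median was -0.12, 0.093, -0.057, 0.0053 and -0.019 in treated animals, against 0.050, 0.026, 0.12, -0.047 and 0.15 in vehicle animals. The median of the chemokine genes lay within 0.024 of it in every treated animal and within 0.047 in every vehicle animal. Of these 513 genes 98 (19.1%) were called, 8 higher and 90 lower, with a median difference of -0.088. The families differed, with 13.6% of the olfactory receptors and 59.3% of the cornified envelope genes called. In 367 genes of 9 housekeeping families, such as ribosomal proteins and proteasome subunits, 151 were called higher and 10 lower, with a median difference of 0.20.

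The housekeeping median minus the silent median averaged 0.070 ± 0.13 in treated and -0.20 ± 0.11 in vehicle animals (SD, n = 5 each; exact permutation p = 0.0159). It was highest in vehicle animal 4 among the vehicle animals, at -0.018, and lowest in treated animal 2 among the treated animals, at -0.086. With this contrast as a covariate 2.18% of all genes passed in limma, and 1 of the 56, CXCR5 (0.41, adjusted p = 0.0444), named here after its value was seen. The median of the 56 differences was then 0.12, and 0.088 over all genes.

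None of the 12 genes passed beside the covariate, and the sizes of their differences changed unequally. CCL5 kept its size, at -0.28 (adjusted p = 0.163), CXCR6 differed by 0.28 (0.108) and CXCL5 by 0.21 (0.149). CCL1 differed by -0.35 (0.0748) and CCR10 by -0.39 (0.114). CCL16 was smaller, at 0.22 (0.349), as were CXCL6 at -0.12 (0.383) and CCL3L3 at -0.11 (0.347). CXCL9 (-0.033), CCL14 (-0.039), CXCR1 (-0.045) and CXCR3 (-0.059) were near 0.

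**Figure D4:**
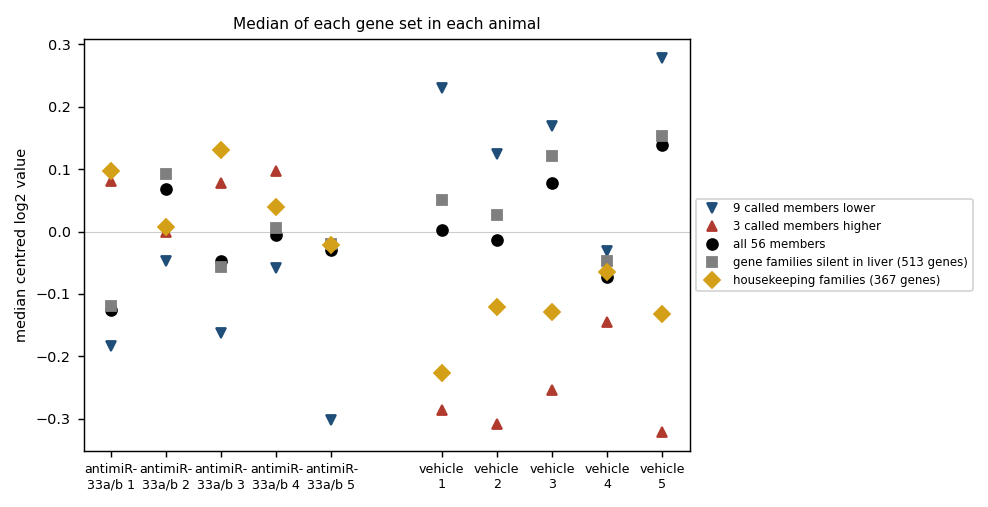
Median centred log2 value in each animal, antimiR-33a/b on the left and vehicle on the right. The sets are all 56 genes, the 9 that were called lower and the 3 called higher. Beside them are 513 genes of families taken as silent in liver and 367 genes of housekeeping families. The medians of the 56 genes and of the silent families lie close together in every animal, and vehicle animal 4 is nearest to the treated animals for the called genes, whose direction was used to form the sets.

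**Figure D5:**
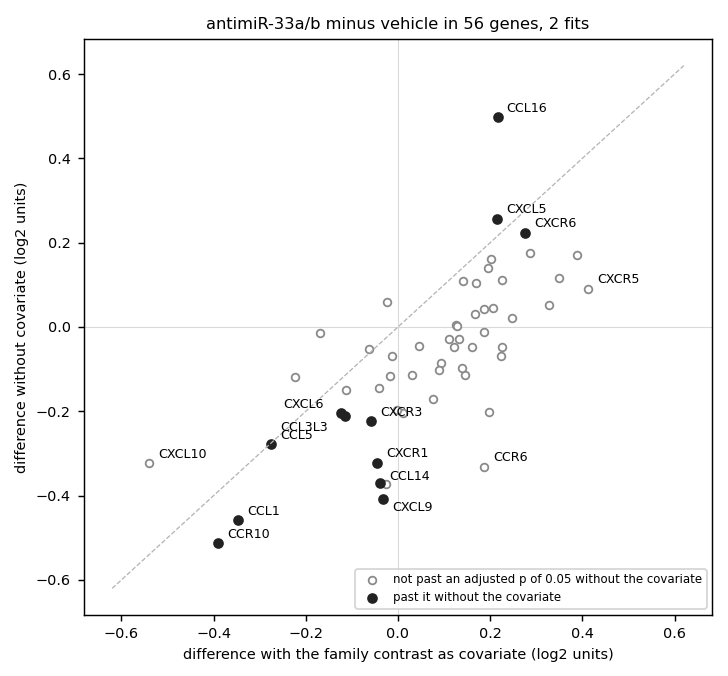
Difference between antimiR-33a/b and vehicle animals (log2 units) in each of the 56 genes, without covariate on the vertical axis and with the contrast of housekeeping and silent families as a covariate on the horizontal axis. Points on the dashed line have the same difference in both fits; CCL5, CXCL5 and CXCR6 lie near it, and CXCL9, CCL14, CXCR1 and CXCR3 lie near 0 on the horizontal axis.

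A few genes varied more between animals than most genes of the silent families did. The pooled within-group SD had a median of 0.12 over the 56 genes, as over the silent families. It exceeded 0.26, the 95th percentile of the silent families, in 6 of the 56 genes (10.7%), against 5.35% of all genes. These were CXCL10 (0.48), CXCL2 (0.48), CCR9 (0.38), CCR6 (0.35), CXCL1 (0.33) and CXCL12 (0.31), and none of the 6 was among the 12 called genes. For CCR9, vehicle animal 5 stood at 1.24 and the other vehicle animals between -0.011 and 0.15. CCL16 (0.20) was the most variable of the 3 genes that rose, and CCL4, with 0.047, was the least variable of the 56.

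Other genes of the chemokine system were described from fixed lists. Of 8 related ligands and receptors with other names, CCRL2, an atypical receptor, rose by 0.22 (limma adjusted p = 0.0413) and PF4V1, a platelet chemokine, fell by 0.23 (adjusted p = 0.0388). Of 26 genes of receptor signalling 5 rose and 1 fell, together 23.1%, near the 20.5% of all genes. The inhibitory G protein subunits GNAI1 and GNAI3 rose by 0.37 and 0.36 (adjusted p = 0.00656 and 0.00636), and the subunit GNG2 by 0.31 (0.0116). GRK5, a receptor kinase, rose by 0.29 (0.00796) and RHOA, a cytoskeletal GTPase, by 0.37 (0.0265), while the myeloid kinase FGR fell by 0.26 (0.00803). GNAI2, another inhibitory subunit, did not pass and differed by -0.089 (limma adjusted p = 0.367). Nor did the receptor kinases GRK2 and GRK6, at -0.20 and -0.15 (0.0610 and 0.0978). Over the 26 genes, 16 differences were positive and 10 negative.

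Among 10 genes that trim, shed or bind chemokines, DPP4, the peptidase that inactivates CXCL10 and other ligands, rose by 0.45 (limma adjusted p = 0.0259), and the carboxypeptidase CPM fell by 0.43 (0.00645). Of 12 inducers, the cytokine gene IL1A fell by 0.24 (0.0413) and 11 did not pass. Of 14 adhesion molecules, MADCAM1, the gut-type addressin, fell by 0.25 (0.0123) and 13 did not pass. Calls made up 25% of the related ligands and receptors, 20% of the processing genes, 8.33% of the inducers and 7.14% of the adhesion molecules. The lists' medians were -0.13 for the related ligands and receptors, 0.076 for signalling, -0.075 for processing, -0.028 for inducers and 0.044 for adhesion, against 0.039 over all genes.

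Markers of the cells that carry these receptors were read beside them. Among 14 markers of T and NK cells, NKG7 and GNLY, genes of cytotoxic granules, fell by 0.31 and 0.20. CD247, a T cell receptor subunit, rose by 0.18, and 11 did not pass. Among those 11, the granule genes GZMB and PRF1 differed by 0.013 and -0.074 (limma adjusted p = 0.921 and 0.333). Calls made up 21.4% of this list, near the 20.5% of all genes. Its median difference was -0.026, with 6 differences positive and 8 negative. The median of this list lay between -0.12 and 0.045 in treated and between -0.12 and 0.16 in vehicle animals. In limma 0 of 8 neutrophil and 0 of 11 macrophage markers passed, with 1 and 0 at an unadjusted p under 0.05. Their medians lay between -0.13 and 0.087 and between -0.26 and 0.21 in treated animals, against -0.10 to 0.067 and -0.40 to 0.44 in vehicle animals. Of 7 dendritic cell markers CLEC10A fell by 0.19 (limma adjusted p = 0.0323) and 6 did not pass. Calls made up 14.3% of the dendritic list. Its differences were positive in 4 genes and negative in 3, with a median of 0.024. Of 11 hepatocyte markers 5 rose and 0 fell, with a median difference of 0.26. These calls made up 45.5% of the hepatocyte list, against 20.5% of all genes and 43.9% of the housekeeping families, whose median difference was 0.20. Of 10 endothelial markers 3 rose, of 10 stellate cell markers 3 rose, and of 6 B and plasma cell markers 2 rose. Among all genes 13.7% were called higher. Of 7 platelet and red cell markers, the platelet genes GP9 and GP1BB fell by 0.43 and 0.33. Calls made up 30% of the endothelial and of the stellate list, 33.3% of the B and plasma cell list and 28.6% of the platelet and red cell list. The red cell genes of that list had large positive differences that did not pass, 1.25 for HBB, 0.92 for HBA1 and 0.64 for ALAS2 (adjusted p = 0.0551, 0.155 and 0.158). The platelet genes TUBB1 and ITGA2B differed by 0.14 and -0.016, and the list's median difference was 0.14. Of 7 cholangiocyte markers 0 passed, with 1 at an unadjusted p under 0.05. The part of these cell types in the chemokine differences was not tested.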

How the data were processed

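Liver RNA of 10 animals was read on one-colour arrays; per the labels' protocols, 1 µg of RNA per animal was turned into cDNA, which carried the Cy3 dye. The authors deposited 1 table of log2 values centred per feature; the log base is assumed, and the sources used here do not give the scanner, normalization, probe summary or centring. Under a natural log base every fold would lie further from 1.

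Features were named through the platform's probe table (18188 with 1 symbol, 26845 with none) and averaged per gene, giving 16583 genes. Each gene's difference (antimiR-33a/b minus vehicle) came from lmFit and eBayes of limma 3.58.1, run in R 4.3.3 with no covariate, and p-values were adjusted by Benjamini-Hochberg over all genes; the script was tested on simulated data. Labels place each array in its group and give each animal as its own sample; no batch is given. No pair of arrays was identical. Precision is limited by the number of arrays.

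The members and lists were chosen with earlier results of these data known. Named genes are members past the threshold, members whose groups do not overlap, the 3 with the smallest p of each class, fixed ligand and receptor sets, and the 3 most and 3 least variable; other members are given to complete a class. Of 167 listed genes 161 were measured. Alternatives were quantile normalization, shifts of the arrays, other ways to combine features, trend and robust settings, array weights, all features tested, an exact permutation test, single animals left out and the family covariate. Sequences and genome positions were not used here.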

Additional observations from a re-analysis of the deposited data

Results flagged for a closer look

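In each group of 5 animals, the gap between the highest or lowest animal and its nearest neighbour was divided by the group's range and set against Dixon's critical value of 0.71. Of 112 groups (56 genes in 2 groups) 3 passed it, all of them vehicle groups, where chance passes about 1 in 20. In CCR9, vehicle animal 5 had 1.24 and its nearest neighbour 0.15. In CCR1, vehicle animal 2 had -0.33 and its nearest neighbour -0.11. In CXCR6, vehicle animal 5 had 0.0012 and its nearest neighbour -0.20.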

How the results depend on the processing

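The count of chemokine genes called higher, 3 as reported, was 6 after the arrays were shifted to the same median, 5 with array weights, 10 after a shift to the same silent-family median (chosen after seeing the data), 1 with the family covariate and 0 with the exact permutation test. The count called lower, 9 as reported, was 12 with quantile normalization, the median shift or array weights, each of which added CCL4, CX3CL1 and XCL2, 4 after the silent-family shift and 0 with the covariate or the exact test. Among all genes, calls made up 19.8% with quantile normalization, 23.4% after the median shift and 26.3% with array weights, against 20.5% as reported. Genes called lower over the whole array numbered 1504, 1609 and 1503 in these settings, against 1128. Adjusted over all genes, the exact test gave 0 calls among the 16583 genes (smallest adjusted p = 0.0596). In limma 18 of the 56 genes had an unadjusted p under 0.05, as did 5904 of all 16583 genes. Leaving out single animals gave 2 to 4 called higher and 3 to 13 called lower. In those fits between 11.6% and 24.8% of all genes were called. The median difference was 0.12 with the covariate and 0.031 after the silent-family shift, against -0.050, and over all genes it was 0.088 and 0.12, against 0.039. The silent-family shift adds 0.080 to every gene and the median shift takes 0.0058 from every gene, so neither moves one gene against another. All 12 called genes stayed called after quantile normalization, the median shift, array weights, both other feature rules and the test over all features, and 10 of them with trend and robust settings, where CXCL9 and CXCR6 missed. After the silent-family shift 7 of the 12 stayed called, and CCL3L3, CCL5, CXCL6, CXCR1 and CXCR3 missed.

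None of the 12 changed sign under the alternatives run. Among the 32 named members, signs turned in these uncalled genes. CCL2 turned with quantile normalization (-0.0041) and the median shift (-0.0035). CXCR2 turned with array weights (0.062) and the silent-family shift (0.066). CCL19 (0.033), CCR7 (0.036), CCL20 (0.051) and CXCL17 (0.011) turned with the silent-family shift. With the covariate the named members that turned were CX3CL1 (0.011), CCR6 (0.19), CXCL1 (0.076), CXCR4 (0.031), CCL19 (0.23), CCR7 (0.045), CCL20 (0.13) and CXCL2 (0.14). Members outside the named ones turned as well, such as CCR8 (from -0.20 to 0.20). Over all 56 genes 20 differences were positive without the covariate and 36 with it. Without single animals, differences ran from -0.031 to 0.036 for CCL2, -0.011 to 0.12 for CXCL11, -0.089 to 0.096 for CXCR2, -0.084 to 0.0092 for CCL19, -0.076 to 0.0035 for CCL20 and -0.30 to 0.050 for CXCL2. Sign changes under the silent-family or median shift follow from that constant and lie in genes close to 0; the cause of the other changes was not tested.

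Of all genes called, 66.8% were higher, against 85.5% after the silent-family shift. With the covariate, which moves with treatment, 362 genes passed. No paired analysis was possible because the labels number no animals across groups. Signal over background is unknown, so genes near background cannot be set apart.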
